A study of Rattus norvegicus with 12 samples.

Results

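The C/EBP and Kruppel-like transcription factors described here are 10 genes, of 14217 genes that the array annotation names: Cebpa, Cebpb, Cebpd and Cebpg, and Klf2, Klf4, Klf5, Klf6, Klf10 and Klf15. They were chosen by symbol, and every probe set assigned to 1 of these genes alone was kept, which gave 28 probe sets and at least 1 for each gene. The arrays measured mRNA in 12 rats, all Sprague-Dawley males 8 weeks old, from the hemisphere on the left side. The MCAO group of 7 had been through occlusion and reopening of the middle cerebral artery, a stroke model, and the Sham group of 5 through a sham operation. All tissue dates from 24 h after reperfusion, 1 array stands for 1 rat, and the labels name no other treatment or genotype and do not say which side was occluded. In tissue of mixed cells, fewer cells of a type and less RNA per cell cannot be told apart.

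C/EBP proteins are basic leucine zipper factors that bind DNA as dimers with each other or with related factors. Cebpb and Cebpd are known for their induction by cytokines in the acute phase response, and Cebpa for myeloid cell differentiation. Kruppel-like factors bind GC-rich and CACCC sequences through zinc fingers. Among them Klf2 and Klf4 are known in endothelium, Klf6 in tissue injury and axon growth, Klf10 as an early target of TGF-beta, and Klf15 as a target of glucocorticoids that regulates metabolism.

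All arrays were of like overall level, with medians between 7.23 and 7.27 on the log2 scale. Over varying genes, MCAO 4 and MCAO 2 had the lowest mean correlation with the other MCAO arrays (0.949 and 0.954), against 0.968 to 0.976 for the other 5. Of the 28 probe sets, 10 were near-constant (an SD under 0.01 among all 12 deposited columns) and 18 varied. A probe set was tested if it exceeded a log2 signal of 6.61 on at least 5 arrays, which 22 of the 28 did, 16 of them varying. For 15 of these 16 every Sham array also lay above that level. Beta-actin control probe sets, whose log2 excess of 3' over 5' signal rises as RNA degrades, gave an excess that ran from 1.27 to 1.47 in 6 MCAO arrays and from 1.40 to 1.46 in Sham. MCAO 6 was left out of that range because its control values are out of order.

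The series compares MCAO with Sham, to ask how brain mRNA levels differ after the occlusion. Of the 10 genes 6 rose in MCAO (Cebpb, Cebpd, Cebpg, Klf4, Klf6 and Klf10), 1 fell (Klf15), and Klf2 did not pass the test (limma, Benjamini-Hochberg adjusted p under 0.05 over all 12153 genes tested). In the same fit 35.2% of the 6339 varying genes were higher and 34.2% lower, and of all genes tested 22.2% and 22.1%. Cebpa and Klf5 were represented by near-constant probe sets, whose values carry no interpretable change. Neither was counted among the members that rose or fell, although Cebpa passed the test at a log2 change of 0.00034 (limma adjusted p = 0.00212). The shares over all genes tested do include near-constant genes, and those over varying genes do not. With near-constant probe sets left out Cebpa and Klf5 were higher as well. Among the 8 genes with a varying representative, all 7 MCAO arrays lay above all 5 Sham arrays for 5 genes, where 17.9% of varying genes did so. The increase was at least 2-fold for 3 genes (Cebpd, Klf10 and Cebpb), where 3.44% of varying genes were called at that size. The median log2 change of the 8 genes was 0.81, against 0.03 over all varying genes.

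**Figure D1:**
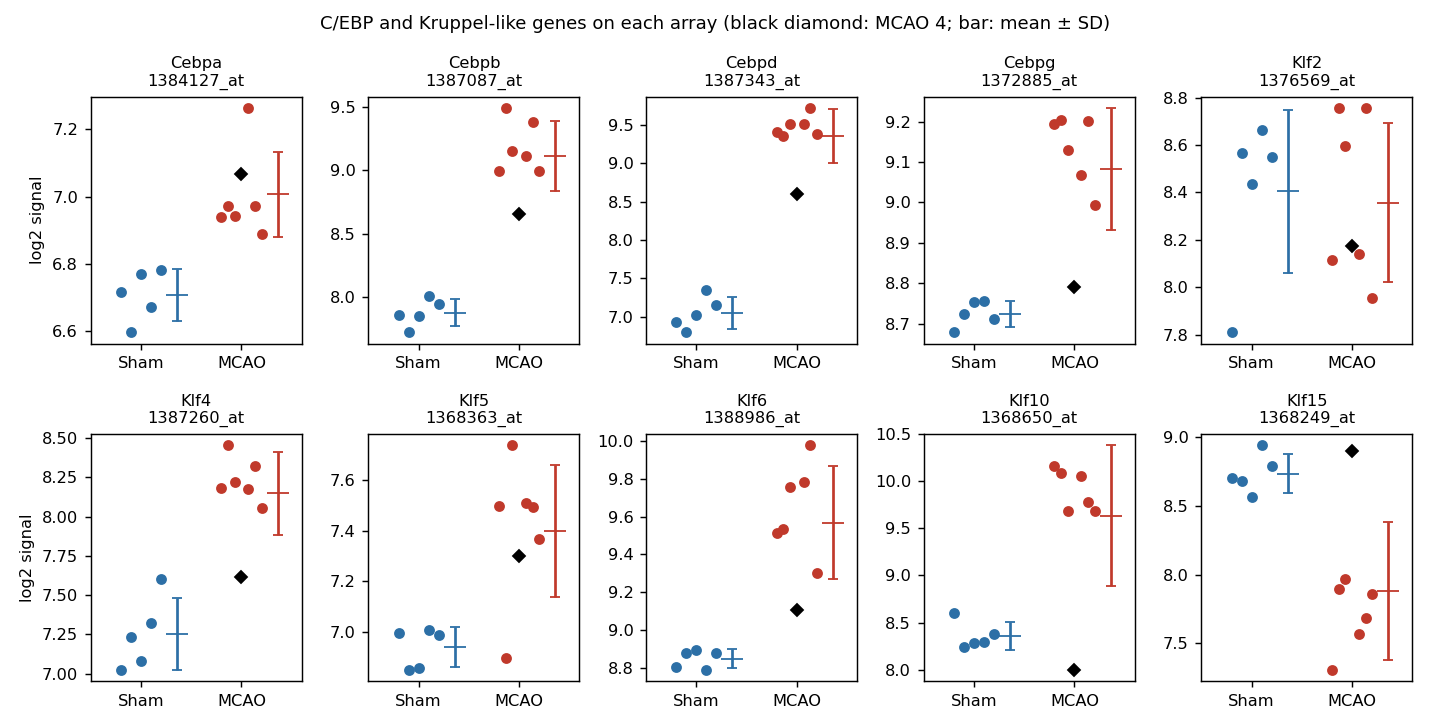
The log2 signal of each gene (y axis, one scale per panel) is plotted for the 5 Sham and 7 MCAO arrays, with the mean and SD beside the points and MCAO 4 as a black diamond. For Cebpa and Klf5 the varying probe set with the highest mean is drawn. Cebpd, Cebpb and Klf4 separate the groups, the Klf2 groups overlap, and the diamond lies on the Sham side for Klf10 and Klf15.

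Cebpd (Entrez Gene 25695), an inflammatory C/EBP factor, had the largest change of the set. Its log2 signal on probe set 1387343_at was 6.94, 6.80, 7.02, 7.35 and 7.15 in Sham 1 to 5. In MCAO the lowest value was 8.59 (MCAO 4), the median 9.40 and the highest 9.72. The groups were therefore more than 1 log2 unit apart at their nearest points. The means were 9.35 ± 0.36 (SD, n = 7) and 7.05 ± 0.21 (SD, n = 5), a 4.93-fold difference (log2 change 2.30 ± 0.18, SE; limma adjusted p = 0.000112). Only 20 of the 3292 varying genes with a positive change had a larger one, as Cebpd ranked 21. A second probe set, 1368813_at, gave a log2 change of 2.04 ± 0.16 (SE), and the third, 1389828_at, was near-constant at 6.53 and not tested.

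Cebpb (Entrez Gene 24253), which binds the promoters of many cytokine and acute phase genes, rose 2.36-fold. The 5 Sham arrays read 7.86, 7.72, 7.85, 8.01 and 7.94 in log2 signal. The MCAO arrays ran from 8.66 (MCAO 4) through a median of 9.12 to 9.49 (MCAO 2), so the groups did not overlap. The log2 change was 1.24 ± 0.13 (SE; limma adjusted p = 0.000347). The change of Cebpd exceeded that of Cebpb by 1.06 log2 units (exact two-sided permutation test over 792 splits, p = 0.00126, the smallest these splits can give). This comparison and 2 others of the same kind below were picked after the values were seen, and each has a Benjamini-Hochberg adjusted p of 0.00126 over the 3 exact permutation tests.

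The 250 bases before the start of Cebpb and of Klf6 are shown because, among genes that rose without overlap between the groups and whose annotated start lies at the gene's outer edge, they had the largest change of the C/EBP and of the Kruppel-like genes. They are RefSeq sequences of rat build GRCr8, at chr3:176816755-176817004 on the plus strand for Cebpb and chr17:69458479-69458728 on the minus strand for Klf6. Capitals mark CACCC or its reverse complement GGGTG.
Cebpb: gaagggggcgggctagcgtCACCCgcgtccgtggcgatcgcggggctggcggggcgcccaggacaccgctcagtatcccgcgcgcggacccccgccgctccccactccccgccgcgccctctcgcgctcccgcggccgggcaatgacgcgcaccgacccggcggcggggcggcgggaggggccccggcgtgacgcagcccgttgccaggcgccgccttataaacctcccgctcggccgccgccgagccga
Klf6: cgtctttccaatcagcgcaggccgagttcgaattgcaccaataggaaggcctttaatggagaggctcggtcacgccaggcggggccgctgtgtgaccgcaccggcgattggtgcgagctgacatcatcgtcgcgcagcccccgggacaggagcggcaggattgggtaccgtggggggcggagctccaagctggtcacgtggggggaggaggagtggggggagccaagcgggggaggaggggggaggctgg
RefSeq promoter windows (250 bases before to 50 after a start) were at hand for 7 of the 10 genes. On both strands CACCC was found in 5 of the 7 (Cebpa, Cebpb, Cebpg, Klf5 and Klf15) and in 54.9% of all 33469 windows. The C/EBP-type motif TTGCNNAA was in 0 of the 7 and in 10.6% of all windows, and the CREB-type motif TGACGTCA was in 0 of the 7 and in 1.83%. The STAT-type motif TTCNNNGAA was in the window of Klf4 alone, as TTCTAAGAA, and in 8.87% of all windows. No 2 matches overlapped. For Klf4 and Klf15 the start is not at the annotated gene's outer edge. How much of these windows falls inside the gene was not checked. GC content of the 7 windows ran from 45.0% (Klf4) to 81.0% (Cebpb), with a median of 51.7% over all windows.

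Cebpg (Entrez Gene 25301), a short C/EBP factor that acts mainly as a dimer partner, rose less. On probe set 1372885_at the Sham arrays read 8.68, 8.72, 8.75, 8.76 and 8.71 in log2 signal, and the MCAO arrays ran from 8.79 (MCAO 4) through a median of 9.13 to 9.20. MCAO 4 was above the highest Sham array by a small margin only, and the other 6 MCAO arrays were clear of Sham. The fit gave a log2 change of 0.36 ± 0.07 (SE; limma adjusted p = 0.00309). Probe set 1371038_at gave 0.60 ± 0.14 (SE; limma adjusted p = 0.00723, over all 17238 probe sets tested), and there MCAO 4 lay inside the Sham range.

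Cebpa (Entrez Gene 24252), the C/EBP factor of myeloid and fat cell differentiation, had 5 probe sets. The one with the highest mean, 1383243_at, was near-constant at 7.10. Of the 3 varying ones only 1384127_at passed the signal filter. Its Sham arrays read 6.72, 6.60, 6.77, 6.67 and 6.78 in log2 signal, and its MCAO arrays ran from 6.89 through a median of 6.97 to 7.26 (MCAO 5). The groups did not overlap, and the log2 change was 0.30 ± 0.06 (SE; limma adjusted p = 0.0048 over all probe sets). In that probe set fit 37.0% of varying probe sets were higher in MCAO and 30.7% lower. The 2 varying probe sets under the filter, 1383242_a_at and 1384126_a_at, differed by 0.26 and 0.25 log2 units in the same direction, with all 7 MCAO arrays above Sham. In contrast to the 7 called genes, MCAO 4 had a Cebpa difference of 0.36 on 1384127_at, the second highest of the MCAO arrays.

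Klf4 (Entrez Gene 114505), a factor of vascular quiescence and of stem cells, rose 1.86-fold. The Sham arrays read 7.03, 7.24, 7.08, 7.32 and 7.60 in log2 signal. The MCAO arrays ran from 7.62 (MCAO 4) through a median of 8.18 to 8.46 (MCAO 2). MCAO 4 and Sham 5 were nearly equal, and the remaining arrays of the 2 groups were well apart. This gave a log2 change of 0.89 ± 0.14 (SE; limma adjusted p = 0.00175).

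Klf2 (Entrez Gene 306330), the flow-induced endothelial relative of Klf4, did not pass the test. Its probe set 1376569_at read 7.81, 8.57, 8.43, 8.66 and 8.55 in Sham 1 to 5, and ran in MCAO from 7.96 through a median of 8.18 to 8.76. Both groups covered nearly the same range, with Sham 1 the lowest array of all. The estimated log2 change was -0.05 ± 0.19 (SE), with a 95% confidence interval from -0.48 to 0.38 (limma adjusted p = 0.878). A second varying probe set, 1386041_a_at, gave -0.04 ± 0.06 (SE; limma adjusted p = 0.694), and 3 more were near-constant. Klf4 and Klf2 changed unequally within the same arrays: the change of Klf4 exceeded that of Klf2 by 0.94 log2 units (exact two-sided permutation test, p = 0.00126).

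Klf6 (Entrez Gene 58954), a factor induced in injured tissue, rose on all of its 3 probe sets. On 1388986_at the Sham arrays read 8.80, 8.88, 8.90, 8.79 and 8.88 in log2 signal, and the MCAO arrays ran from 9.11 (MCAO 4) through a median of 9.54 to 9.98 (MCAO 6). The groups did not overlap, and the MCAO values spread more widely, with an SD 6.15 times that of Sham. Over all varying genes the median of this SD ratio was 1.96. The log2 change was 0.72 ± 0.13 (SE; limma adjusted p = 0.00286), and the other 2 probe sets gave 0.81 ± 0.15 (1387060_at) and 0.93 ± 0.15 (1395557_at).

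Klf5 (Entrez Gene 84410), a factor of proliferating epithelium and smooth muscle, had 4 probe sets, of which only 1368363_at varied. The Sham arrays read 6.99, 6.85, 6.86, 7.01 and 6.99 in log2 signal. The MCAO arrays ran from 6.90 (MCAO 2) through a median of 7.50 to 7.74 (MCAO 3). Of the 7 MCAO arrays 6 lay above all Sham arrays, and MCAO 2 lay among them. Its log2 change was 0.46 ± 0.12 (SE; limma adjusted p = 0.0121 over all probe sets). The probe set with the highest mean, 1394039_at, was near-constant at 8.11.

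**Figure D2:**
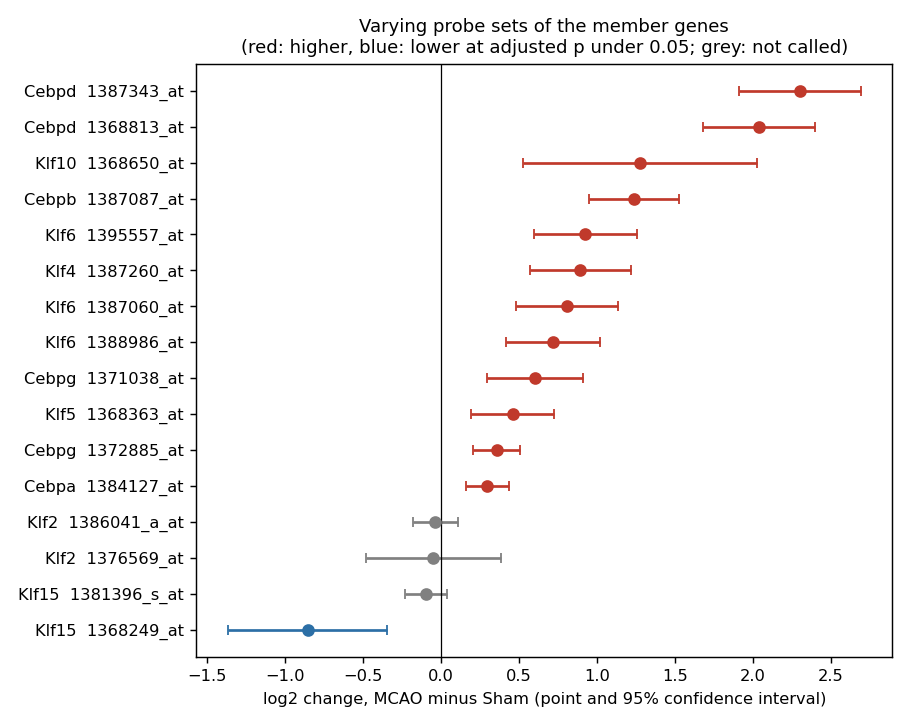
The log2 change, MCAO minus Sham, of the 16 varying and tested probe sets is plotted on the x axis with its 95% confidence interval, red where higher, blue where lower and grey where not called. Of these, 12 probe sets from 8 genes were higher, 1 (Klf15) was lower and 3 were not called. Probe sets of Cebpd and of Klf6 lie close together, while those of Klf15 differ.

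Klf10 (Entrez Gene 81813), also known as Tieg, had a large but uneven change. The Sham arrays read 8.60, 8.24, 8.28, 8.29 and 8.37 in log2 signal. Of the MCAO arrays 6 lay between 9.68 and 10.16, whereas MCAO 4 read 8.00 and was the lowest array of all 12. The log2 change was 1.28 ± 0.34 (SE; limma adjusted p = 0.0121), and without MCAO 4 it was 1.55 (limma adjusted p = 2.43e-05). MCAO 4 was singled out after the values were seen. Over all fits that left out 1 array the change ran from 1.19 to 1.55 (highest limma adjusted p = 0.031). An exact rank-sum test adjusted over all genes did not call Klf10 (adjusted p = 0.085).

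Klf15 (Entrez Gene 85497), which controls amino acid and glucose metabolism under glucocorticoids, was the only one of the 10 genes that fell. The Sham arrays read 8.71, 8.68, 8.56, 8.94 and 8.79 in log2 signal on probe set 1368249_at. Of the MCAO arrays 6 were lower than every Sham array, from 7.31 (MCAO 1) to 7.97 (MCAO 3), and MCAO 4 read 8.90, within the Sham range. The log2 change was -0.85 ± 0.23 (SE; limma adjusted p = 0.0131), a level 1.81-fold lower than in Sham, and -1.02 without MCAO 4 (limma adjusted p = 0.000262). Here too MCAO 4 was singled out after the values were seen. Over all fits that left out 1 array the change ran from -1.02 to -0.76 (highest limma adjusted p = 0.0345). Only 35 of 3047 varying genes with a negative change had a larger one, as Klf15 ranked 36. An exact rank-sum test adjusted over all genes did not call it (adjusted p = 0.0615). A second varying probe set, 1381396_s_at, changed little (-0.09 ± 0.06, SE; limma adjusted p = 0.239), so the mean of the gene's tested probe sets gave a smaller log2 change of -0.47.

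**Figure D3:**
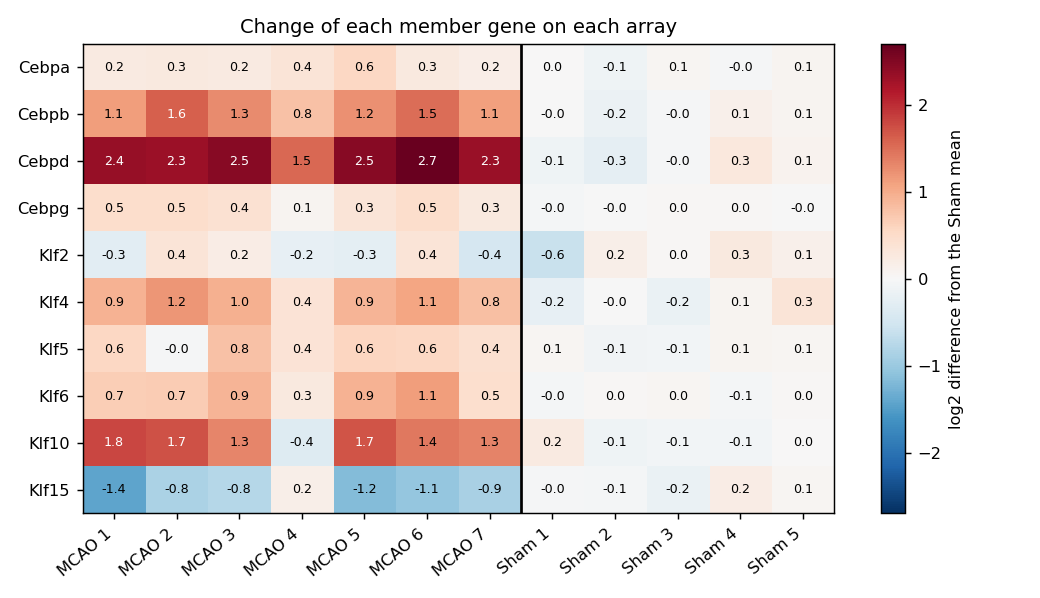
Colour and printed numbers give the log2 difference of each gene (rows) from its Sham mean on each of the 12 arrays (columns, MCAO left of the line). The column of MCAO 4 is the palest of the MCAO columns for the 7 called genes, with -0.36 for Klf10 and 0.16 for Klf15. Cebpd is the darkest row, from 1.54 to 2.67 in MCAO.

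Among the MCAO rats, the 7 called genes had their smallest change on the same array but not their largest. MCAO 4 had the smallest change of the 7 MCAO arrays for all 7 genes, and the median absolute difference from Sham was 0.36 log2 units there, against 0.88 to 1.20 on the other 6 arrays. That median ignores direction: on MCAO 4 Klf10 (-0.36) and Klf15 (0.16) ran against their group change. The largest change fell on MCAO 2 for 3 genes, on MCAO 1 for 2 and on MCAO 6 for 2. The mean difference of MCAO 4 over striatal projection neuron markers was -0.70, inside the range of -0.86 to -0.54 over the MCAO arrays. Over neutrophil and monocyte markers it was 0.82, inside 0.58 to 1.67. It was 0.91 over acute phase and inflammatory genes, 0.25 over upstream signals of C/EBP genes and 0.32 over axon growth genes. Each of those was the lowest of the MCAO arrays, where the highest were 2.20, 0.93 and 1.29. Small changes on MCAO 4 were thus not particular to the 7 called genes. Those lists were drawn up around the same factors and share genes (Il6 and Il1b, Stat3 and Socs3), so they do not count as separate observations. Whether the extent of the lesion differed between rats was not tested.

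Within the 7 MCAO arrays, 28 pairs of the 8 varying genes were compared by correlation. After Benjamini-Hochberg adjustment 3 pairs passed (exact permutation test on Pearson's r over 5040 pairings). Cebpb and Klf4 had r = 0.949 (exact permutation p = 0.000595, adjusted p = 0.0167) and Spearman's rho = 0.964 (exact permutation p = 0.00278, adjusted p = 0.0389). Without the 2 arrays farthest from the Cebpb median r was 0.879, and without MCAO 4 it was 0.944. Cebpg and Klf4 had r = 0.948 (exact permutation p = 0.00258, adjusted p = 0.0241) and rho = 0.964 (exact permutation p = 0.00278, adjusted p = 0.0389), with r = 0.616 without the 2 arrays farthest from the Cebpg median. Cebpd and Klf6 had r = 0.864 (exact permutation p = 0.00159, adjusted p = 0.0222), rho = 0.857 (exact permutation p = 0.0238, adjusted p = 0.167), and r = 0.849 without the 2 farthest arrays. Klf10 and Klf15 ran opposite to each other with r = -0.941 (exact permutation p = 0.00933, adjusted p = 0.0653) and rho = -0.786 (exact permutation p = 0.048, adjusted p = 0.265), and r was -0.433 without the 2 farthest arrays.

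For each called gene the 3 varying genes with the highest Pearson r over the 7 MCAO arrays were taken as the most alike. They are the highest of 6338 candidates each, so no p is given. A high r can also rest on MCAO 4, the array with the smallest change for every called gene. Rela, the NF-kB subunit p65, was most like Cebpb (r = 0.994, and 0.993 without the 2 arrays farthest from the Cebpb median), followed by the laminin gene Lamc1 (0.979) and the ubiquitin-like gene Sumo3 (0.977). For Cebpd the genes were the stress-induced Ier3 (0.984), Coq8b (0.983) and the uridine enzyme gene Upp1 (0.981), and without the 2 farthest arrays these values were 0.66, 0.523 and 0.446. Rassf1 (0.997), Emp1 (0.989) and LOC100912041 (0.989) were most like Cebpg. For Klf4 they were Pla1a (0.989), Irf2bpl (0.988) and the myo-inositol transporter gene Slc5a3 (0.983). Endoglin, Eng (0.993), the cytokine receptor chain gene Il2rg (0.99) and Vwa1 (0.987) were most like Klf6. For Klf10 the kinase gene Jak2 (0.995), the actin gene Actg1 (0.987) and the growth arrest gene Gadd45a (0.982) led. Without the 2 arrays farthest from the Klf10 median these values were 0.901, 0.76 and 0.755. Klf15 was most like the collagen gene Col4a5 (0.991), Arhgef2 (0.989) and Zfhx4 (0.988), all of which fell. Without the 2 arrays farthest from the Klf15 median these values were 0.92, 0.832 and 0.868. For Cebpg, Klf4 and Klf6 the lowest such value was 0.875 (Klf4 and Slc5a3).

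Relatives of the C/EBP genes mostly moved upward too. Of 12 varying genes among other C/EBP genes and bZIP dimer partners, 7 rose and 2 fell, with a median log2 change of 0.52. The counts of this list and of those below stand beside 35.2% higher and 34.2% lower over all varying genes. Counts near those shares do not set a list apart. Atf3, a stress-induced factor, rose by 2.33 ± 0.25 (SE; limma adjusted p = 0.000395), and the AP-1 gene Jun by 1.23 ± 0.19. All Sham arrays of Atf3 lay at or below the signal filter, so it was tested only through MCAO. Ddit3, which forms inactive dimers with C/EBP proteins, rose by 0.51, Atf4 by 0.74, Nfil3 by 0.92 and Fos by 1.52. Cebpz, which the 7 include by its symbol although it is not a bZIP factor, rose by 0.53. The call of Fos was lost without Sham 1, Sham 2, Sham 3 or Sham 5 (highest limma adjusted p = 0.0569). The PAR bZIP genes ran the other way: Dbp, a clock output gene, fell by 0.71, Tef by 0.26, and Hlf had a change of -0.47 that did not pass (limma adjusted p = 0.0865). The Tef call was lost when any of 9 arrays was left out (highest limma adjusted p = 0.0881), but not without MCAO 4, MCAO 7 or Sham 2.

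Few relatives of the Kruppel-like genes varied, only 3 of 12 tested. Klf9, which like Klf15 is known as a glucocorticoid target, rose by 0.32 ± 0.07 (SE; limma adjusted p = 0.00625), Klf16 fell by 0.29, and Klf12 fell by 0.30. The Klf12 call was lost when any of 10 arrays was left out (highest limma adjusted p = 0.106), and held without MCAO 4 or Sham 4. With near-constant probe sets left out, the count of higher genes in this list was 3, against 1 (Klf9) in the main fit. The changes of Klf9 and Klf15 differed by 1.18 log2 units (exact two-sided permutation test, p = 0.00126), with no overlap between the groups. With the mean of each gene's tested probe sets the difference was 0.65 (exact permutation p = 0.00379).

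**Figure D4:**
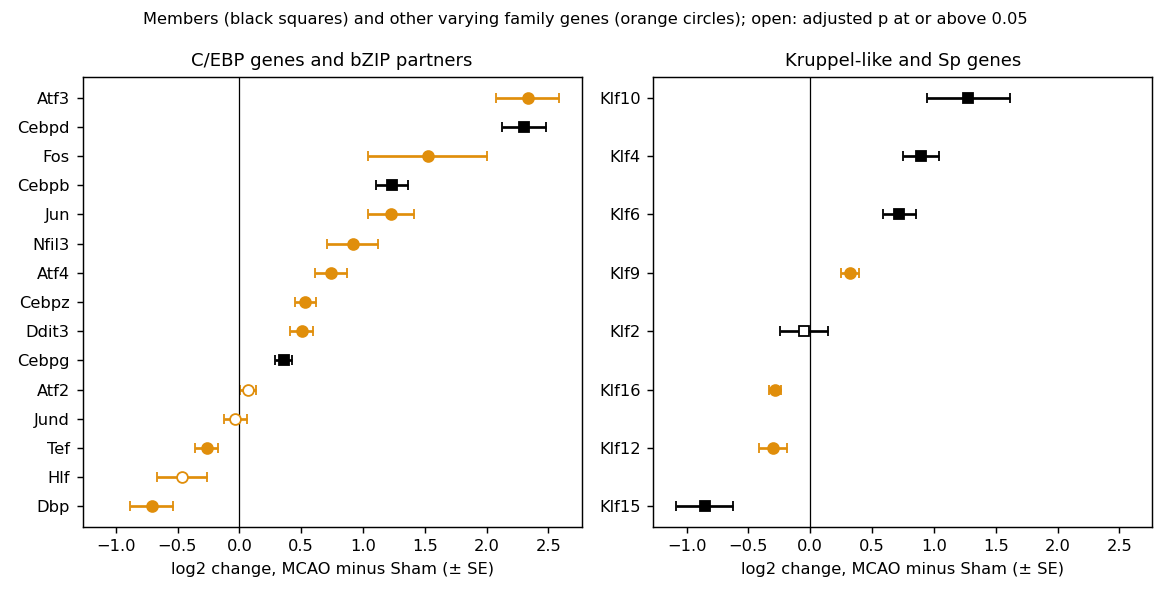
The log2 change, MCAO minus Sham, is plotted on the x axis with its SE. Black squares are the varying members, and orange circles are other varying genes of each list of relatives, Cebpz among them. Open symbols did not pass the test. Cebpd at 2.30 is the highest C/EBP gene, the Sham arrays of Atf3 all lay at or below the signal filter, and Klf15 at -0.85 is the lowest Kruppel-like gene.

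Upstream signals of the C/EBP genes were higher for the most part. Of 18 varying genes 15 rose and 2 fell, with a median log2 change of 0.62. Stat3, which carries the signal of IL-6 type cytokines, rose by 1.88 ± 0.16 (SE; limma adjusted p = 0.000198), and the TNF receptor gene Tnfrsf1a by 1.44 ± 0.14. The cytokine gene Il6 rose by 1.49, the feedback inhibitor gene Socs3 by 1.73, and Il1b by 1.13. The Sham arrays of Il6, Socs3 and Il1b all lay at or below the signal filter, so they were tested only through MCAO. Nr3c1, the glucocorticoid receptor gene, fell by 0.30, and Trib2, which promotes the breakdown of C/EBP alpha, fell by 0.28, while its relative Trib1 rose by 0.54.

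Acute phase and inflammatory genes known as C/EBP targets had 14 members higher and 1 lower of 15 varying genes, with a median log2 change of 1.41. For 10 of the 14 all Sham arrays lay at or below the filter, so the count is not independent of the direction. Cd14 rose by 3.13 and the siderophore-binding protein gene Lcn2 by 2.52. Of the other 4, the copper carrier gene Cp rose by 1.41 ± 0.15 (SE), the prostaglandin synthase gene Ptgs2 by 1.91 ± 0.47, Ccl3 by 1.48 and C3 by 0.60. Agt, the angiotensinogen gene of astrocytes, fell by 0.57. Neutrophil and monocyte markers, which share S100a8, S100a9 and Csf3r with that list, were all higher (7 of 7 varying, with a mean log2 level of 7.49 to 8.58 over the MCAO arrays and 6.82 to 6.98 over Sham). Of 14 markers in that list 11 were on the array and only these 7 were tested, Csf3r not among them. For 3 of the 7 (Il1r2, S100a8 and S100a9) all Sham arrays lay at or below the filter. With the filter at the 50th percentile 3 markers were called higher, and with no filter 8. The call of Fcnb was lost on leaving out any of 7 arrays (highest limma adjusted p = 0.0751). The part of these cells in the changes of the C/EBP genes was not tested.

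Known regulators of the Kruppel-like genes were mixed: of 14 varying genes 3 rose and 6 fell, with a median log2 change of -0.06. Tgif1, a repressor in the TGF-beta pathway, rose by 1.13 and Tgfb1 by 0.39, whose Sham arrays all lay at or below the filter. In the kinase cascade that induces Klf2 and Klf4, Map2k5 fell by 0.33, Mef2a by 0.20 and Mef2c by 0.71. Among glucocorticoid-induced genes Tsc22d3 fell by 0.44, whereas Fkbp5 (0.11), Sgk1 (0.29) and Per1 (-0.13) did not pass the test (limma adjusted p = 0.258, 0.256 and 0.395).

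Endothelial genes known as targets of Klf2 and Klf4 had 7 members higher and 2 lower of 12 varying genes, with a median log2 change of 0.55. Targets that these factors induce and targets that they repress were not separated, so the counts do not measure their activity. For 2 of the 7, Nos3 and Sele, all Sham arrays lay at or below the filter, so they were tested only through MCAO. The cell cycle inhibitor gene Cdkn1a rose by 0.95 ± 0.14 (SE; limma adjusted p = 0.00118), and the adhesion molecule gene Icam1 by 1.32 ± 0.20. Thrombomodulin, Thbd, which Klf2 and Klf4 are known to induce, rose by 1.30, and the nitric oxide synthase gene Nos3 by 0.58. Vcam1 fell by 0.47. The calls of Kdr (0.53) and Ocln (-0.32) were lost on leaving out any of 10 and of 7 arrays, one at a time (highest limma adjusted p = 0.0966 and 0.0752). Sele, an adhesion gene that rose by 1.07, no longer passed the signal filter when any of 5 MCAO arrays was left out. Endothelial markers showed 4 higher and 2 lower of 9 varying genes (Kdr among them, and Flt1, whose call was lost without Sham 1, Sham 2 or Sham 4, highest limma adjusted p = 0.0561), with a mean log2 level of 8.11 to 8.35 in MCAO and 8.11 to 8.24 in Sham, and their part in the Klf4 change was not tested.

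Axon growth genes studied with Kruppel-like factors had 7 members higher and 2 lower of 11 varying genes, with a median log2 change of 0.95. Stat3, Socs3, Atf3 and Jun were also counted in lists above. For 2 of the 7, Atf3 and Socs3, all Sham arrays lay at or below the filter. Stat3 and Atf3 had the strongest limma statistic, and Sox11 rose by 0.95 ± 0.15 (SE). The cornified envelope gene Sprr1a, known from regenerating neurons, rose by 3.18 ± 0.74. The tubulin regulator gene Stmn2 fell by 0.28 and the neuronal tubulin gene Tubb3 by 0.19.

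Metabolic and growth genes known as targets of Klf15 or C/EBP factors had 4 members higher and 3 lower of 8 varying genes, with a median log2 change of -0.03. The proline oxidase gene Prodh, a known Klf15 target, fell by 0.85 ± 0.18 (SE; limma adjusted p = 0.00476), the lysine breakdown gene Aass by 0.66 and the lipase gene Lpl by 0.35. Gadd45a rose by 1.99, the cyclin gene Ccnd1 by 0.98, Cdkn1a by 0.95 and Glul by 0.08. Ppargc1a (-0.13) did not pass the test (limma adjusted p = 0.103). Targets of Klf15 and of C/EBP factors were not separated, so the counts do not measure the activity of either.

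Markers of brain cell types were set beside the changes. Over all varying genes 35.2% were higher and 34.2% lower, and marker counts near those shares do not set a cell type apart. Of 8 varying astrocyte markers 5 fell and 1, Gfap, rose, and their mean log2 level ran from 10.67 to 11.09 in MCAO and from 10.88 to 10.95 in Sham. Their mean difference from Sham was highest in MCAO 4 (0.20), the array without a Klf15 decrease, and lay between -0.27 and -0.05 in the other 6 MCAO arrays. Astrocytes were not alone in this: microglia markers (0.19) and oligodendrocyte precursor markers (0.06) also had their highest MCAO value on MCAO 4. The part of astrocytes in the Klf15 change was not tested. Microglia markers had 2 higher and 2 lower of 6 varying genes (mean log2 level 7.49 to 7.98 in MCAO and 7.75 to 7.97 in Sham), led by Itgam (0.92) and P2ry12 (-1.26). Striatal projection neuron markers had 8 of 9 lower, neuron markers 6 lower and 1 higher of 12, oligodendrocyte markers 3 of 8 lower and oligodendrocyte precursor markers 2 of 4 lower. The calls of Olig1, Gad2 and Cnp among these were lost on leaving out any of 10, 9 and 8 arrays, one at a time (highest limma adjusted p = 0.106, 0.0998 and 0.0831), that of Opalin without Sham 2 or Sham 3, and that of the fibroblast marker Slc6a13 without Sham 3. Pericyte and smooth muscle markers had 2 of 5 higher (Tagln, 1.56, and Des, 0.78), fibroblast markers 2 higher and 1 lower of 10, and choroid plexus and ependyma markers 1 of 5 higher. All 4 tested markers of T, B and NK cells were near-constant.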

How the data were processed

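Oligonucleotide arrays of left brain hemisphere RNA from 7 MCAO and 5 Sham rats were analysed, and groups and rat numbers were taken from the sample titles. Per the labels' protocols, total RNA was extracted with TRIzol, cleaned on RNeasy columns, and 100 ng was turned into biotin-labelled cRNA. The table deposited by the authors holds values for 31099 probe sets as log2 signals, a base inferred from their range of 5.00 to 14.01. Which software, background correction and normalization made it is not given in the sources used here. Values were used as deposited. No measure of depth applies, and the number of arrays limits the precision.

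Of the probe sets, 20826 had 1 gene in the platform annotation, 436 had several, 9780 were not in that table and 57 were controls. Only the first kind was used. Near-constant probe sets (SD under 0.01) made up 62.5% of non-control probe sets and were kept in the fit. Tested probe sets exceeded the 25th percentile of all values (6.61) on at least 5 arrays, and the tested probe set of highest mean stood for a gene. Groups were compared in limma 3.58.1 (R 4.3.3) with lmFit and eBayes, its prior variance following mean intensity, in two-sided tests, and p-values were adjusted by Benjamini-Hochberg over the 12153 genes or, where stated, all probe sets. The code was checked on simulated data. Counts in lists refer to varying genes.

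The members and lists were chosen with earlier results of these data known. Named from each list were the 2 genes with the strongest limma statistic and the strongest of the minority direction; other list genes were picked after their values were seen. The labels do not say whether rats of 1 group differ in litter or day. Alternatives were other scalings, filters, probe set choices, variance models, array weights, an exact rank-sum test, a replicate block and leaving out each array. Rat numbers shared between the groups were not used to pair the arrays in the main fit.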

Additional observations from a re-analysis of the deposited data

Results flagged for a closer look

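Of 36 groups of arrays checked (18 varying probe sets of the 10 genes in MCAO and in Sham), 7 held an array whose gap to its neighbour was large for the group's range by Dixon's criterion (0.568 for 7 arrays and 0.71 for 5). Chance flags about 1 in 20 groups, and probe sets of 1 gene are not independent. In MCAO 4 these were Cebpd on 1387343_at (log2 signal 8.59), Klf10 on 1368650_at (8.00), and Klf15 on 1368249_at (8.90) and 1381396_s_at (7.21), each on the Sham side of the other 6 MCAO arrays. In MCAO 5 Cebpa on 1384126_a_at was high (6.79), a probe set under the signal filter. In Sham 1 Klf2 was low on both varying probe sets, at 7.81 on 1376569_at and 6.71 on 1386041_a_at. Without Sham 1 the log2 change of Klf2 was -0.20 and did not pass (limma adjusted p = 0.403).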

How the results depend on the processing

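Cebpb, Cebpd, Cebpg, Klf4 and Klf6 kept their direction and their call under all 25 alternatives tried. Klf10 and Klf15 kept them under 23 of 25. The exact rank-sum test gave adjusted p = 0.085 for Klf10 (log2 change 1.28) and 0.0615 for Klf15 (-0.85), and the replicate block gave 1.24 (adjusted p = 0.0749) and -0.81 (adjusted p = 0.0663). The count of the 10 genes that were lower was then 0 instead of 1 under both. With the replicate block 1597 genes were higher and 1531 lower, against 2698 and 2688, and 1 astrocyte marker was lower, against 5. Rats of the same number had correlations of their deviations from the group means of 0.318, 0.536, -0.335, -0.046 and 0.159. Rats of different number were not compared in this way, so these values cannot decide whether a number marks a pair. Leaving out single arrays moved Klf2 between -0.20 and 0.019, with a change of sign without MCAO 7 (0.019) or Sham 4 (0.017), and did not make it pass. The near-constant representative of Cebpa had a log2 change of 0.00034 and turned to -0.0088 under quantile normalization, to -0.013 where arrays were set to one median and to -0.0069 where they were set to one 75th percentile. That of Klf5 (-0.00010) turned to 0.15 with the mean of probe sets, and to 0.46 with the probe set of largest variance or with near-constant probe sets left out. Of 960 counts over lists and alternatives, 867 were within 1.5 times the main count. The array medians span 0.05 log2 units, so changes of about that size are not resolved. Near-constant probe sets weigh on these medians, so the limit for varying ones may be larger.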
